A study of Mus musculus with 9 samples.

Results

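The 5 genes described here are active in radial glia, the dividing progenitor cells of the embryonic cortical wall, and comprise the transcription factor genes Sox3, Rfx4 and Nfix, the lipid-binding protein gene Fabp7 and the long non-coding RNA gene Sox2ot. They were chosen by their measured values, because each passed the authors' test in the comparisons below, and they are 5 of 1030 genes listed in at least 1 of 3 deposited tables. Rows were found by gene name for 4 genes; the rows of Sox2ot carry no name and were found by the Ensembl identifier ENSMUSG00000105265. Their values are therefore a description, and no test of these genes was added.

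Polyadenylated RNA was sequenced from cortex taken at embryonic day 12 from 9 mouse embryos, 3 in each of 3 groups. All 9 carried 1 Cre allele at Emx1 (Emx1 Cre/+), whose promoter is active in dorsal telencephalic progenitors, so the WT controls carry the recombinase too. At Zbtb7a, which encodes a zinc finger transcription factor with a BTB domain, the WT group was +/+, the cHet group carried 1 floxed allele (fl/+) and the cKO group 2 (fl/fl). Cre at Emx1 acts in these progenitors and their descendants and not in vessels, blood cells or meninges, which dissected cortex also holds. The embryos came from 2 litters, and which embryo came from which litter is not given in the sources used here, so litter and genotype cannot be told apart.

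As background, radial glia line the ventricle, divide there and give rise to neurons and later to glia. SOX proteins of the B1 group, SOX1, SOX2 and SOX3, hold progenitors in the undifferentiated state. In mice RFX4 is needed for formation of the dorsal midline of the telencephalon and for cilia, and NFIX, with its relatives NFIA and NFIB, for the maturation of radial glia towards gliogenesis. FABP7, also called brain lipid-binding protein, is a widely used marker of radial glia, and Sox2ot is a spliced non-coding transcript whose gene surrounds Sox2.

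The authors deposited 3 tables, which compare cHet with WT, cKO with WT and cHet with cKO. Each row gives a log2 fold change, its standard error (SE) over 3 libraries per group and an adjusted p from the authors' DESeq2 test (Benjamini-Hochberg). The tables hold only genes with an adjusted p under 0.05, called listed here. Levels per embryo were not analysed here, so neither the level of a gene, nor the depth of a library, nor the overlap between individual embryos is known. In whole cortex, fewer cells of a type and less RNA per cell cannot be told apart.

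Promoter sequences are shown for the 3 of 5 genes that the RefSeq table of promoters (GRCm38.p6) holds, because 2 of them were higher and 1 was lower in cHet. Each runs from 250 bases before the most upstream start in that table to 50 bases after it, and capitals mark GACCC, a core of binding sites described for ZBTB7A, and TTGGC, a core of NFI binding sites, on either strand (reverse complements GGGTC and GCCAA).
Rfx4 promoter: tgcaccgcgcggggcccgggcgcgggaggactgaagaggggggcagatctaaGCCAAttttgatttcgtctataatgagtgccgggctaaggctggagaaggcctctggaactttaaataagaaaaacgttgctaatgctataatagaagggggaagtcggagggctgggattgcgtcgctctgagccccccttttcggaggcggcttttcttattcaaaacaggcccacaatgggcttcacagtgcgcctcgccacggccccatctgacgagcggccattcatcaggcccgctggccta
Nfix promoter: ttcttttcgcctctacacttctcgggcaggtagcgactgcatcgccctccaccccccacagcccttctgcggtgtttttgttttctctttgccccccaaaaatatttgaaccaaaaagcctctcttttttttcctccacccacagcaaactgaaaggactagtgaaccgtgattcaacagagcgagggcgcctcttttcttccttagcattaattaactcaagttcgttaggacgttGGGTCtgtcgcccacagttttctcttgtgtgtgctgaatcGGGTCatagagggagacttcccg
Fabp7 promoter: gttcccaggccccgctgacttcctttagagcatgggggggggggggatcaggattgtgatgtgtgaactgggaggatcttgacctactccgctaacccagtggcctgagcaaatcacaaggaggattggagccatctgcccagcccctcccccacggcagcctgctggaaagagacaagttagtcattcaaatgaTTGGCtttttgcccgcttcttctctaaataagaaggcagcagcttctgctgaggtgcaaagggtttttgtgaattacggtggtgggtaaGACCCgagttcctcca
These windows lie at chr10:84755798-84756097 on the plus strand for Rfx4, chr8:84780033-84780332 on the minus strand for Nfix and chr10:57784673-57784972 on the plus strand for Fabp7. Rfx4 has 2 starts in the table and Nfix 4. In the GENCODE M21 annotation Nfix runs on the minus strand from 84800344 to 84699876. The Nfix window therefore lies at a start inside the gene and not at its annotated upstream end.

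GACCC occurred in 43.9% of all 32851 promoter windows of the same length, and TTGGC in 46.7%. The Fabp7 window held GACCC at position 34 and the Nfix window held it at positions -13 and 27, counted from the start base as 0 to the leftmost letter of the match, while the Rfx4 window held none. TTGGC was at -55 in Fabp7 and at -198 in Rfx4, and not in the Nfix window. In Fabp7 this core was part of the longer NFI motif, TTGGC followed after 5 bases by GCC, which 1.38% of windows held on either strand. The RBPJ motif TGGGAA, in 25.6% of windows, was found at -249 in Fabp7 and in neither other window. The SOX core ACAAT, in 31% of windows, was found at -22 in Rfx4 and -198 in Fabp7, and the RFX core GTTGCC, in 12.5% of windows, in none of the 3. These matches describe the letters in each window and are not evidence of binding.

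Sox3 was higher in cHet than in either other group. The authors' deposited table gave a log2 fold change of 0.82 (SE 0.19) over WT, a ratio of 1.77 with a 95% interval from 1.37 to 2.28. Over cKO the authors' deposited table gave 0.64 (SE 0.19), a ratio of 1.56 with an interval from 1.21 to 2.01. The adjusted p of the DESeq2 test was 0.0033 and 0.024, in that order, in the authors' deposited tables. By size, Sox3 was at rank 2 of 126 genes higher in cHet than in WT and at rank 67 of 417 genes higher than in cKO.

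Sox3 has 1 exon of 2065 bp on chromosome X, from 60891366 to 60893430 (mm10, minus strand). Its longest match among other transcripts was to Sox2, with 77.7% identity over 565 aligned bases; shorter matches had higher identity, up to 86.7% over 285 bases of Sox21. The most similar 60 coding bases of Sox3 and Sox2 are shown because the 2 genes are hardest to tell apart there, with capitals at the 3 bases that differ.
Sox3, coding bases 469 to 528: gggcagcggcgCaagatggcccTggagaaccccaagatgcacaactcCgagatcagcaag
Sox2, coding bases 166 to 225: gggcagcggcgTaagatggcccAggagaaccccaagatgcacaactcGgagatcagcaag
Sox2 itself was listed in none of the 3 tables. Sox3 is X-linked, and the Y-linked gene Eif2s3y was lower in cHet, with fitted log2 values of -24.80 (SE 3.91) over WT and -23.04 (SE 3.91) over cKO in the authors' deposited tables, sizes that give no readable fold. No other gene of chromosome Y was listed in either cHet comparison. The labels do not give the embryos' sex, and Xist, the RNA of the inactive X chromosome, was not listed. Of the genes on chromosome X, 3 were listed as higher and 2 as lower in cHet than in WT, and 9 as higher and 19 as lower than in cKO. The annotation holds 948 protein-coding genes on this chromosome, and how many of its genes were tested is not known. Over all tested genes 1.6% were listed against WT and 7.26% against cKO, so no excess on chromosome X is read from these counts. The part of sex in the values of Sox3, or of the other genes described here, was not tested.

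Rfx4 was likewise higher in cHet, by less than Sox3 against both groups. The log2 fold change in the authors' deposited table was 0.67 (SE 0.14) over WT, a ratio of 1.59 (95% interval 1.32 to 1.92), and the adjusted p of the DESeq2 test was 6.3e-04. Against cKO it was 0.47 (SE 0.14) in the authors' deposited table, a ratio of 1.38 (1.15 to 1.66), with an adjusted p of 0.025 in the DESeq2 test. The Rfx4 value over WT had the smallest SE of the 5 genes and was at rank 6 by p among the 126 higher genes, although 7 of these had a larger fold change. Rfx4 spans 84756062 to 84906538 on chromosome 10, which places it 3.6 Mb from Zbtb7a (81135220 to 81152995), the floxed gene. No exon of another annotated gene overlaps its exons.

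Nfix had nearly equal values in the 2 comparisons. The authors' deposited tables gave a log2 fold change of 0.78 (SE 0.22) over WT and 0.76 (SE 0.22) over cKO, which are ratios of 1.72 (95% interval 1.28 to 2.32) and 1.69 (1.25 to 2.28). Its adjusted p in the DESeq2 test was 0.032 and 0.024 in the authors' deposited tables. Against WT this was the adjusted p closest to the threshold among the 5 genes, and its SE was the largest. Nfix lies on chromosome 8 from 84699876 to 84800344 on the minus strand, and its exons share 137 bp with G430095P16Rik and 4 bp with Lyl1, both on the opposite strand and neither listed, against 7351 bp of merged Nfix exons. Whether the authors' counting used strand is not given in the sources used here.

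Fabp7 went the other way. The log2 fold change in the authors' deposited table was -0.75 (SE 0.20) over WT, a ratio of 0.596 (95% interval 0.455 to 0.781), with an adjusted p of 0.021 in the DESeq2 test. Over cKO it was -1.05 (SE 0.20) in the authors' deposited table, a ratio of 0.482 (0.368 to 0.632), with an adjusted p of 8.8e-05 in the DESeq2 test. Fabp7 thus ranked 18 by p among 554 genes lower than in cKO and 74 among 122 genes lower than in WT. The gene is short, with 1250 bp of merged exons, and lies on chromosome 10 from 57784881 to 57788450, at 23.3 Mb from Zbtb7a. Length moved with direction against cKO, where listed protein-coding genes had a median exonic length of 3060.5 bp if lower and 5575.5 bp if higher in cHet. Against WT these medians were closer, at 4435.5 bp if lower and 5015 bp if higher. The part of gene length in the Fabp7 value was not tested.

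Sox2ot had the largest change and the smallest adjusted p of the 5 genes in both comparisons. In the authors' deposited tables its log2 fold change was -1.37 (SE 0.19) over WT and -1.35 (SE 0.19) over cKO, ratios of 0.388 (95% interval 0.298 to 0.505) and 0.393 (0.302 to 0.512). The adjusted p of the DESeq2 test was 8.5e-09 and 1.3e-08, and by p Sox2ot ranked 2 of 248 and 5 of 971 listed genes, in the authors' deposited tables.

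**Figure D1:**
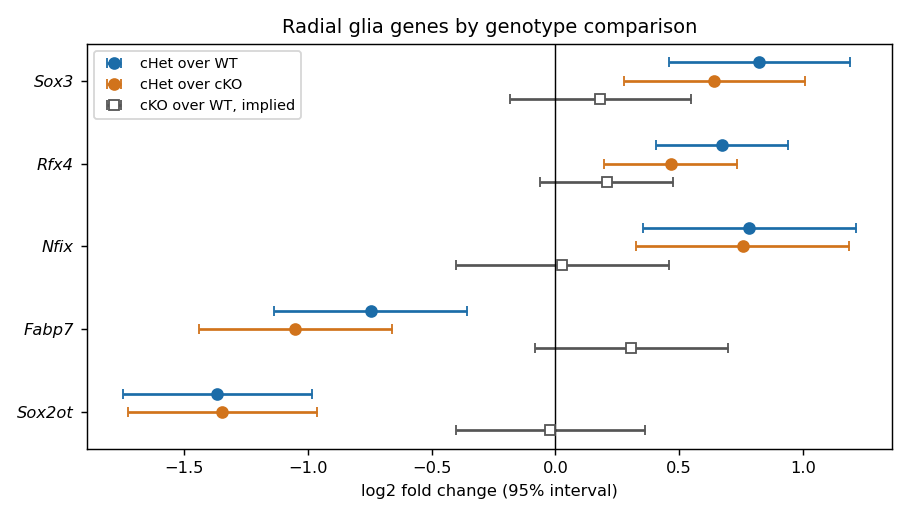
Log2 fold changes of the 5 radial glia genes with 95% intervals (x axis) for cHet over WT, cHet over cKO and the implied change of cKO over WT (open squares). Sox3, Rfx4 and Nfix are right of 0 and Fabp7 and Sox2ot left of 0 in both cHet comparisons, while all 5 implied intervals include 0.

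The gene of Sox2ot covers 578.4 kb of chromosome 3, from 34104270 to 34682619 on the plus strand, with 19 merged exons totalling 11594 bp. In GENCODE M21, 14 other genes lie within it, and 4 of them share exonic bases with it. These are RF01953 (272 bp), Gm27403 (214 bp) and Gm27611 (107 bp), annotated as miscellaneous RNA, and the microRNA gene Mir1897 (79 bp). Mir1897 lies within RF01953, so the bases of these genes are partly the same. Sox2 lies in the same orientation, from 34650405 to 34652461, and its 2057 bp exon shares 0 bp with the exons of Sox2ot. Reads of spliced Sox2ot and of Sox2 therefore fall on separate annotated bases in this release, although the annotation that the authors used is not given in the sources used here. None of the 14 genes, Sox2 included, was listed in any table.

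**Figure D2:**
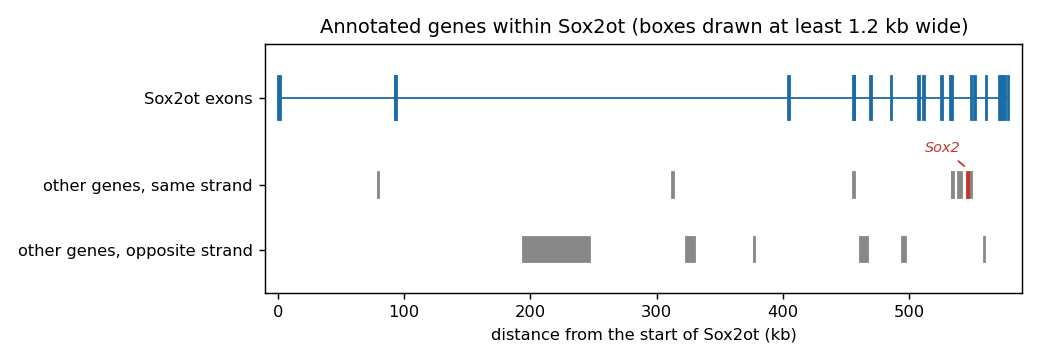
Map of Sox2ot in kb from its annotated start (x axis), with its merged exons in the top row and the other annotated genes on the same and the opposite strand below. Sox2, in red, sits between exons of Sox2ot and shares 0 bp with them.

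All 5 genes were listed for cHet over WT, where 1.6% of 15465 tested genes were, and all 5 for cHet over cKO, where 7.26% of 13375 were. In each comparison 3 of the 5 were higher and 2 lower in cHet. Over all tested genes, 0.815% were listed as higher and 0.789% as lower against WT, and 3.12% and 4.14% against cKO. None of the 5 was listed for cKO over WT, where 0.0148% of 26976 tested genes were. Being listed chose the 5 genes, so nothing is read from these counts, and the 2 comparisons share the 3 cHet libraries.

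Stricter rules kept different genes in the 2 comparisons. At an adjusted p under 0.01 the authors' deposited table for WT kept Sox3, Rfx4 and Sox2ot (0.42% of all tested genes passed), and that for cKO kept Fabp7 and Sox2ot (0.994%). With Bonferroni adjustment Rfx4 and Sox2ot passed against WT (0.194% of all tested genes) and Fabp7 and Sox2ot against cKO (0.329%). With a minimum absolute log2 change of 0.5, all 5 passed against WT (1.18% of tested genes) and all but Rfx4 against cKO (5.35%).

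**Figure D3:**
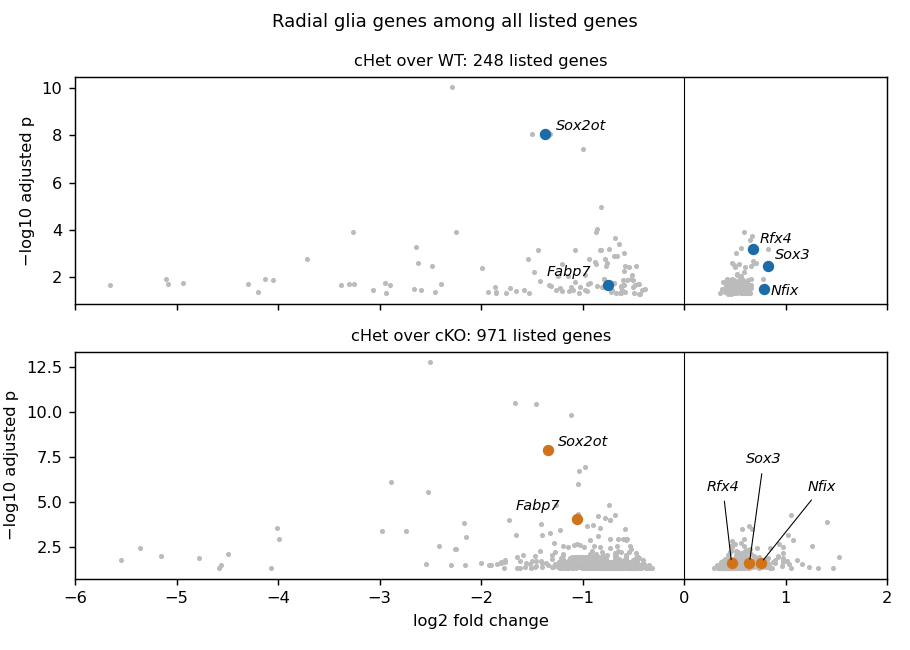
Log2 fold change (x axis) against -log10 of the adjusted p (y axis) for every listed gene in cHet over WT (248 genes, top) and cHet over cKO (971 genes, bottom), with the 5 radial glia genes coloured. Sox2ot stands near the top of both panels, while Sox3, Rfx4 and Nfix lie close to the threshold in the lower panel; 2 and 1 genes below -6 lie outside the x axis.

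The groups are ordered by 0, 1 and 2 floxed alleles, and each of the 5 genes was shifted in the group with 1. Being listed in the cHet comparisons chose the 5 genes, so this shift follows from the choice and is a description. Nor is it particular to them, since 190 genes were listed in both cHet tables, beside 248 listed over WT and 4 listed for cKO over WT. A change of cKO over WT was derived by subtracting the deposited value against cKO from that against WT, which holds if all comparisons are unshrunken contrasts of the same fit. Over the 190 genes listed in both cHet tables the ratio of the 2 SEs ran from 0.988 to 1.008. The implied log2 change of cKO over WT was -0.02 (SE 0.19, 95% interval -0.40 to 0.36) for Sox2ot and 0.03 (SE 0.22, -0.40 to 0.46) for Nfix. It was 0.18 (SE 0.19, -0.19 to 0.55) for Sox3, 0.21 (SE 0.14, -0.06 to 0.48) for Rfx4 and 0.31 (SE 0.20, -0.08 to 0.70) for Fabp7. All 5 intervals include 0, and the largest difference that each includes, in either direction, ran from 0.40 for Sox2ot to 0.70 for Fabp7 on the log2 scale, so equal expression in cKO and WT is not shown. To be listed for cKO over WT, a log2 change of at least 0.61 would have been needed for Rfx4 and 0.97 for Nfix, with the other 3 genes between these.

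Relatives of the 5 genes were examined by family. All 4 NFI genes were higher in cHet than in cKO, where 3.12% of all tested genes were; Nfix is among the 4 because it was chosen for being listed. Beside Nfix, the authors' deposited table gave log2 fold changes of 0.50 (SE 0.14) for Nfia, 0.49 (SE 0.17) for Nfib and 0.52 (SE 0.15) for Nfic, with an adjusted p in the DESeq2 test of 0.019, 0.045 and 0.028. The median of the 4 was 0.51, beside 0.50 over all listed higher genes. Against WT only Nfix was listed, and a log2 change of 0.46 for Nfia, 0.55 for Nfib and 0.52 for Nfic would have been needed at the same SE. A change as large as that against cKO would have passed this limit for Nfia and missed it for Nfib and Nfic. Nfic lies on chromosome 10 from 81396186 to 81455635, at 0.243 Mb from Zbtb7a.

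Among 20 SOX genes, 2 were higher and none lower in cHet than in WT, beside 0.815% of all tested genes higher, and Sox3 was chosen for being listed. These were Sox3 and Sox12, a SOX gene of the C group, with 0.42 (SE 0.10) for Sox12 in the authors' deposited table. Against cKO 5 were higher, beside 3.12% of all tested genes, and none lower, with 0.33 (SE 0.10) for Sox12, 0.60 (SE 0.15) for Sox13, 0.88 (SE 0.25) for Sox18 and 1.03 (SE 0.31) for Sox7 in the authors' deposited table. Sox7 and Sox18 belong to the F group, known from vascular endothelium. In the same comparison 5 of 16 markers of endothelium and pericytes were higher (beside the same 3.12%) and none lower, among them Kdr, the VEGF receptor gene of endothelium, at 0.93 (SE 0.24) in the authors' deposited table; against WT none of the 16 was listed. Sox18 is itself among these 5 markers, so the SOX count and the marker count are not separate. Sox1 and Sox2, the closest relatives of Sox3, and Sox9 and Sox21 were not listed.

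Rfx4 was the only listed gene of 8 in the RFX family. None of 22 cilium genes, a class of genes that RFX factors regulate, was listed, beside 1.6% of all tested genes over WT and 7.26% over cKO, shares at which few or none of 22 would be listed. Among 10 genes of fatty acid-binding proteins, Fabp7 alone was listed in each cHet comparison, beside the same shares of all tested genes. Rfx4 and Fabp7 were chosen for being listed, so nothing is read from either family count. The list of fatty acid-binding proteins was also narrowed afterwards.

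**Figure D4:**
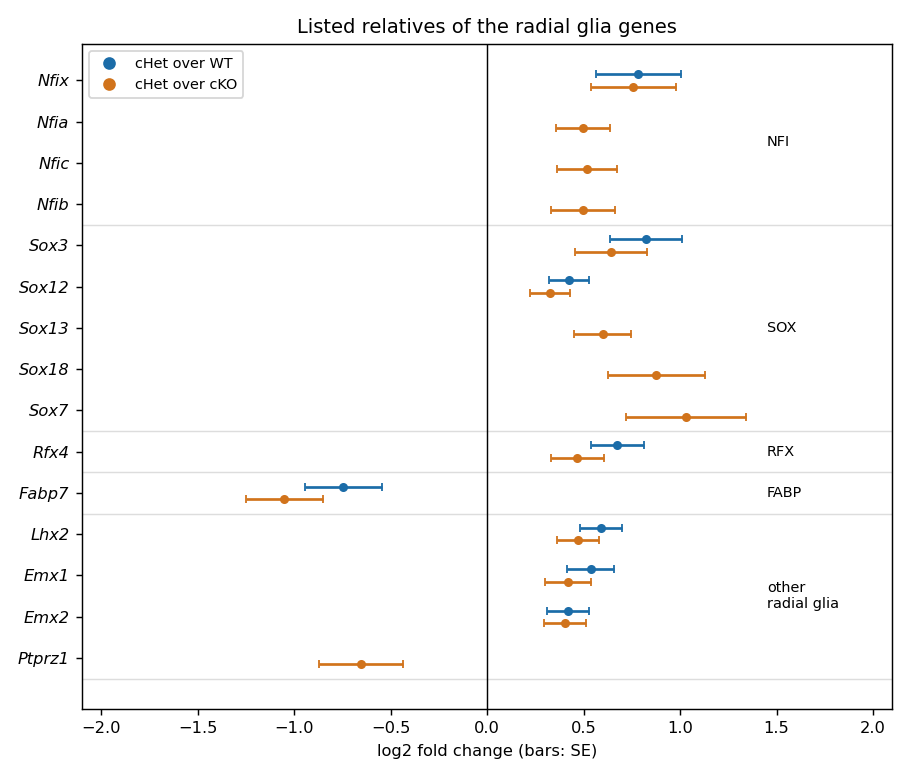
Log2 fold changes with SE bars (x axis) of listed genes in the NFI, SOX, RFX and FABP families and of other listed radial glia genes, for cHet over WT and cHet over cKO; a missing point means that the gene was not listed. The 4 NFI genes all lie above 0 for cHet over cKO, and Fabp7 lies below 0 in both comparisons.

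Of 26 other radial glia genes, 3 were higher and none lower in cHet than in WT, which is 11.5% beside 1.6% of all tested genes. They were the dorsal telencephalic regulators Lhx2, Emx1 and Emx2, at 0.59 (SE 0.11), 0.54 (SE 0.12) and 0.42 (SE 0.11) in the authors' deposited table. Against cKO the same 3 were higher, and Ptprz1, a receptor phosphatase gene of radial glia, was lower at -0.65 (SE 0.22) in the authors' deposited table, so that 15.4% were listed beside 7.26% of all tested genes. Against cKO, Lhx2 alone was left at an adjusted p under 0.01, and Ptprz1 alone with a minimum absolute log2 change of 0.5. Against WT, Lhx2 and Emx1 were left under each of these rules. A core list of 9 radial glia genes had 0 listed in either comparison. Widely used markers and regulators on this list, namely Pax6, Nes, Vim, Hes1, Hes5, Slc1a3, Sox9 and Nr2e1, were not listed in any table. The list was compiled with earlier results of these data known, and its share is a description.

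Of 12 genes tied to glial competence, 1 was higher and 1 lower in cHet than in WT, and 3 were higher and 1 lower than in cKO, which is 16.7% and 33.3% listed beside 1.6% and 7.26% of all tested genes, Nfix included. The lower gene in both was Zbtb20, a BTB zinc finger gene, at -1.03 (SE 0.28) over WT and -0.97 (SE 0.28) over cKO in the authors' deposited tables, and the higher ones were NFI genes. None of 27 genes of Notch signalling, which maintains radial glia, and none of 11 annotated genes of intermediate progenitors was listed, beside 1.6% of all tested genes over WT and 7.26% over cKO. At these shares few or none of either list would be listed, so nothing is read from these counts.

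Markers of other cells were read against the same shares, 1.6% over WT and 7.26% over cKO. Early neuron genes were listed for 6 of 20 over WT (30%), 5 of them lower, and for 7 of 20 over cKO (35%), 6 of them lower. Nsg2, which encodes a neuronal vesicle protein, was at -1.32 (SE 0.19) over WT and -1.46 (SE 0.19) over cKO in the authors' deposited tables. The higher gene in both was Fezf2, at 0.65 (SE 0.13) over WT and 0.64 (SE 0.13) over cKO in the authors' deposited tables. Of 20 ventral telencephalic genes 7 (35%) were listed in each, all lower in cHet, with fitted log2 values down to -7.17 (SE 1.42) for Dlx6 over WT in the authors' deposited table. The 7 were not the same genes, as Dlx6 and Gad1 were listed only over WT and Sp9 and Dlx5 only over cKO. In both comparisons their SEs ran from 1.13 for Dlx2 to 1.51 for Gsx2, beside medians over all listed genes of 0.16 over WT and 0.19 over cKO. Mesenchymal and meningeal genes were listed for 0 of 14 over WT and for 4 of 14 over cKO (28.6%), all higher. Macrophage genes (12) and erythroid genes (10) had none listed over WT and 1 each, lower, over cKO (8.33% and 10%), near the share of all tested genes. The part of these cells in the values of the 5 genes was not tested.

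The genes with the most similar pairs of values were named by distance in log2 units over the 2 cHet comparisons, among the 190 genes in both tables. For Sox2ot they were Elmod1 (distance 0.0575), the mitochondrial complex I gene mt-Nd5 (0.0929) and Nsg2 (0.122). Fabp7 was nearest to Rgcc (0.0532), to Stmn3 (0.073), a microtubule regulator of neurons, and to Ttc9b (0.0793). Sox3 was nearest to the ERK phosphatase gene Dusp7 (0.0732), the forkhead factor gene Foxo6 (0.107) and the histone acetyltransferase gene Kat2a (0.121). Nfix was nearest to Foxo6 (0.0216), Dusp7 (0.0584) and Sox3 (0.121). Rfx4 was nearest to E130012A19Rik (0.00207), to Polr1b (0.0389), a subunit gene of RNA polymerase I, and to Vars (0.0739), which encodes a transfer RNA synthetase. All distances are within the SE of the values compared, apply to 2 comparisons with shared cHet libraries, and say nothing of shared control.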

How the data were processed

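RNA of 9 libraries was compared in 3 tables. The submitters' processing notes name cutadapt, featureCounts and DESeq2, without versions, and mm10 as the tools and build that the authors used. The deposited log fold changes and SEs were read as log2, the base the authors' tool reports, as the file headers give none. The deposited statistic is a score equal to the log2 change divided by its SE. The deposited p-values are adjusted and under 0.05 in every row. Fold changes were read as first-named over second-named group; no gene with a known change anchors that sign.

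The numbers of tested genes (15465, 26976 and 13375) were recovered from the deposited p-values by inverting the Benjamini-Hochberg adjustment, a step tested on simulated data. Planned tests on counts were not run, since the tables hold comparisons; depth per library is unknown. Intervals are 1.96 SE. The implied SE assumes equal error in the 3 groups. Genes were matched to GENCODE M21 (GRCm38, the assembly of mm10). Transcripts were compared with BLAST 2.17.0; none of the 5 genes matched a transcript of a different gene at 95% identity over 300 bp. Motifs were searched on both strands.

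The members and the 15 gene lists were chosen with earlier results of these data known; the FABP list was narrowed afterwards, and 1 item is not reported here. Named genes were the 5 genes, listed genes of radial glia, glial and family lists, up to 4 of other lists, and the 3 nearest by distance. Scripts ran under Python 3.11.15 with SciPy 1.17.1, pandas 2.3.3, matplotlib 3.10.9 and NumPy 2.4.6.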

Additional observations from a re-analysis of the deposited data

How the results depend on the processing

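At an adjusted p under 0.01, 3 of the 5 genes passed for cHet over WT and 2 for cHet over cKO, and with Bonferroni adjustment 2 and 2. With a minimum absolute log2 change of 0.5, 5 and 4 passed. Of 26 other radial glia genes, 3 were listed over WT and 4 over cKO. The count over WT became 2 at an adjusted p under 0.01 and 2 with the minimum change (Lhx2 and Emx1 under both rules). The count over cKO became 1 at an adjusted p under 0.01 (Lhx2) and 1 with the minimum change (Ptprz1). In both comparisons 0 were listed in the core list without the 5 genes. A stricter rule can only lower a count, whereas the core list is a shorter list read at the same adjusted p under 0.05. Over 30 alternatives for single genes, 18 stayed past the threshold and 12 did not; all apply other thresholds to the same deposited fold change, so its direction was not tested. The implied values have standard errors of up to 0.31 when no shared error is subtracted, which widens their intervals around the same values. Leaving out replicates and other normalizations were not run, because values per library were not analysed here. No paired analysis was possible because the tables hold no values per library.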
